A study of Rattus norvegicus with 7 samples.

Results

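The genes described here encode subunits of the nicotinic acetylcholine receptor, a ligand-gated cation channel built of 5 subunits. They were taken from the authors' deposited table by symbol, as all genes whose name begins with Chrn followed by a subunit letter. This gave 7 of the 14702 genes in the table. Of these, 4 encode subunits of the receptor at the motor endplate (Chrna1, Chrnb1, Chrnd and Chrne) and 3 encode subunits known mainly from neurons and sensory cells (Chrna3, Chrna4 and Chrna10). Their Ensembl identifiers in the table are ENSRNOG00000018286 (Chrna1), ENSRNOG00000014698 (Chrnb1), ENSRNOG00000019527 (Chrnd), ENSRNOG00000003777 (Chrne), ENSRNOG00000013829 (Chrna3), ENSRNOG00000011202 (Chrna4) and ENSRNOG00000020293 (Chrna10). No symbol was repeated. The fetal gamma subunit Chrng and the other neuronal subunits, among them Chrna5 and Chrnb4, were not analysed here.

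At the endplate, acetylcholine released by the motor nerve opens receptors packed into the crests of the muscle membrane, and the inward current triggers contraction. The adult receptor contains alpha1, beta1, delta and epsilon subunits. In fetal and denervated muscle gamma takes the place of epsilon, and subunit genes are then transcribed along the whole fibre and not only by the nuclei under the nerve terminal. Receptors of autonomic ganglia are built from other subunits, chiefly alpha3 with beta4, and mediate fast transmission to the neurons that supply glands, vessels and smooth muscle.

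RNA was sequenced from the thyroarytenoid muscle, the muscle of the vocal fold. All rats were female, of the Long Evans strain and 8 months old. The groups were 4 wild-type rats (WT) and 3 rats with both copies of Pink1 knocked out (Pink1-/-), 1 library each. The sources used here do not say how the knockout line was made. All values come from a single comparison of the genotypes, so values per rat, the depth of each library and the spread between rats were not analysed here.

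The table showed the knockout: Pink1, the kinase that tags faulty mitochondria for mitophagy, stood at a log2 fold change of -4.91 (Pink1-/- over WT, adjusted p 8.24e-49 per the authors' deposited table). Markers of the muscle fibre were abundant, with Myh4, a fast myosin heavy chain, at a mean of 15.42 log2 CPM (reads scaled to a common library total) per the authors' deposited table. The samples also held other tissue of the vocal fold, since the gland mucin Muc5b reached a mean of 12.65 log2 CPM per the authors' deposited table. That mean covers both groups, and with the fold change it implies 10734.8 CPM in WT rats and 633 CPM in Pink1-/- rats. The log2 fold change of Muc5b was -4.08, with an adjusted p of 0.150 per the authors' deposited table. Genes were called at an adjusted p under 0.05, which 448 of all 14702 genes (3.05%) passed, 201 of them higher (1.37%) and 247 lower (1.68%) in Pink1-/- muscle per the authors' deposited table.

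The regulatory sequence before each subunit gene is shown first, because endplate subunits are known for shared control by myogenic factors, which bind the letters CANNTG (the E-box), and, from work in mouse and rat, by ETS factors that bind CCGGAA (the N-box) under the nerve terminal. The sequences are the 250 bases before the gene start in RefSeq's rat assembly GRCr8, on the gene's strand. For Chrna1, Chrnd and Chrna3 that start is the outer end of the gene in RefSeq's gene table. For Chrnb1, Chrne, Chrna4 and Chrna10 it is a start inside the gene's span, so their distances and counts hold for that start only. They are printed for the 4 endplate genes and, for contrast, for Chrna3. Capitals mark each CANNTG and each CCGGAA or its reverse complement TTCCGG.
Chrna1 (chr3:78877354-78877603, minus strand): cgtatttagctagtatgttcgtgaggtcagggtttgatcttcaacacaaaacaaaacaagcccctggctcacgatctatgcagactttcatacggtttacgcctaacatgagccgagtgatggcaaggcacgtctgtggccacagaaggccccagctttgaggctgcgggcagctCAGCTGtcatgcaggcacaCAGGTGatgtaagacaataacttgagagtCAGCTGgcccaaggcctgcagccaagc
Chrnd (chr9:95310066-95310315, plus strand): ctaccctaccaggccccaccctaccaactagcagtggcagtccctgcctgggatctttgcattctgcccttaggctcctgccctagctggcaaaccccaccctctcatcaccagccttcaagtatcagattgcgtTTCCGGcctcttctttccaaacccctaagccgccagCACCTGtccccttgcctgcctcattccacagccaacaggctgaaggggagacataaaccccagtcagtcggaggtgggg
Chrnb1 (chr10:55015108-55015357, minus strand): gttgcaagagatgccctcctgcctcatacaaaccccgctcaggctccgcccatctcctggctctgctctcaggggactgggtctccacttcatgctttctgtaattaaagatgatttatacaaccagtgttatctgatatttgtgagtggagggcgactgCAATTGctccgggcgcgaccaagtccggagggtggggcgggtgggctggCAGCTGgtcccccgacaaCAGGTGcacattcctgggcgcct
Chrne (chr10:55834155-55834404, minus strand): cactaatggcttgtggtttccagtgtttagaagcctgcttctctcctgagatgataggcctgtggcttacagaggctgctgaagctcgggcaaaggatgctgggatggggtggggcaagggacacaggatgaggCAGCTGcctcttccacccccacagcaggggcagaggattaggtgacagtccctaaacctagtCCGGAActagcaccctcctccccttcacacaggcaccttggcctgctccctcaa
Chrna3 (chr8:64311252-64311501, minus strand): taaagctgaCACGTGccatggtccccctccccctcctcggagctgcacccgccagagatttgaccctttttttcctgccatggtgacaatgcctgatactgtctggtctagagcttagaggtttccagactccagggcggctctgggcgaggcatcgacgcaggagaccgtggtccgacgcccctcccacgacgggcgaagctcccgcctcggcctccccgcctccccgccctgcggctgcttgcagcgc

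All 4 endplate windows held an E-box, as did 65.5% of the 33469 windows of the same length before rat genes. Chrna1 and Chrnb1 each had 3 E-boxes, a number reached by 11.5% of all windows, and Chrnd and Chrne had 1 each. The E-box form CAGCTG stood in the windows of Chrna1 (75 and 27 bases before the start), Chrnb1 (41 bases before it) and Chrne (116 bases before it). At least 1 CAGCTG was present in 12.0% of all windows and at least 2, as in Chrna1, in 1.04%. The N-box letters were found in Chrnd (115 bases before the start) and Chrne (54 bases before it), against 12.6% of all windows. Distances are those of a motif's first base. Chrna3 had 1 E-box, of the form CACGTG, 241 bases before its start, and no N-box. Neither motif was found in the windows of Chrna4 and Chrna10. CANNTG and CAGCTG were searched on both strands, which read the same, and every CAGCTG is also counted as an E-box. These matches describe letters in the windows, and binding was not measured.

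The 4 endplate subunit genes all had higher fitted levels in Pink1-/- than in WT muscle, and 2 of the 4 passed the test. Chrna1 and Chrnd rose, Chrnb1 and Chrne were not called, and Chrna3, the ganglionic alpha subunit, fell. Of the 7 members 3 were called, against 3.05% of all genes. Among the called members 2 were higher, against 1.37% of all genes, and 1 was lower, against 1.68%. The members were chosen with earlier results of these data known, so these shares are not an independent test.

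Chrna1 encodes the alpha1 subunit, which carries the principal face of the acetylcholine binding site and is present as a pair in each receptor. Its level implied by the mean CPM and the fold change was 11.3 CPM in WT rats and 31.3 CPM in Pink1-/- rats. By the authors' deposited table, its log2 fold change was 1.47, with an adjusted p of 0.00258. That is 2.76-fold, with an implied standard error (SE) of 0.34 on the log2 scale and an implied 95% interval from 1.74-fold to 4.39-fold. By its p-value Chrna1 ranked 96 among the 14702 genes, and 0.422% of all genes had a log2 fold change as high or higher.

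Chrnd encodes the delta subunit, which forms a binding site together with alpha1. Its implied level was 7.56 CPM in WT rats and 15.7 CPM in Pink1-/- rats. The log2 fold change was 1.06 with an adjusted p of 0.0490 per the authors' deposited table. This corresponds to 2.08-fold, with an implied SE of 0.33 (log2) and an interval from 1.32-fold to 3.27-fold. Chrnd lay just inside the threshold, at rank 444 by p-value among 448 called genes.

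The beta1 subunit, encoded by Chrnb1, is the structural subunit through which rapsyn-linked clustering is regulated. Its implied level went from 35.3 CPM in WT rats to 55.9 CPM in Pink1-/- rats, at a log2 fold change of 0.66 and an adjusted p of 0.101 per the authors' deposited table. The implied interval ran from 1.15-fold to 2.18-fold, and the unadjusted p was 0.00535 per the authors' deposited table.

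Chrne, the adult epsilon subunit made under the nerve terminal, had implied levels of 26.7 CPM in WT rats and 40.8 CPM in Pink1-/- rats. Its log2 fold change of 0.61 had an adjusted p of 0.178 and an unadjusted p of 0.0169 per the authors' deposited table. The implied interval, from 1.08-fold to 2.16-fold, lay above 1 but the gene was not called over all genes.

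**Figure D1:**
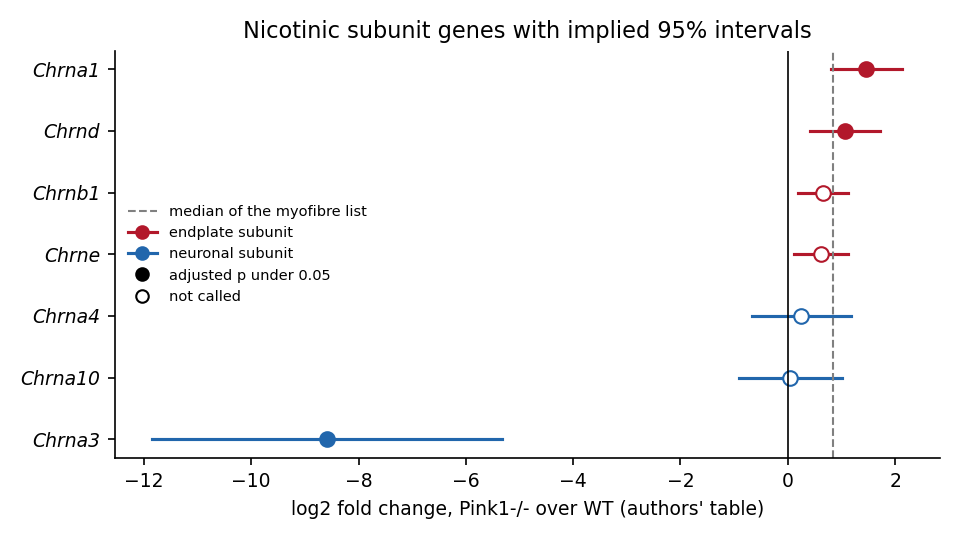
Log2 fold change (Pink1-/- over WT, x axis) of the 7 nicotinic subunit genes (y axis), as points with implied 95% intervals as lines; filled points have an adjusted p under 0.05. The 4 endplate genes lie between 0.61 and 1.47, around the dashed median of muscle fibre genes at 0.84, and Chrna3 lies at -8.59.

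The 4 endplate genes did not have equal fold changes, but their intervals overlapped in all 6 pairs. The largest gap was between Chrna1 and Chrne. The ratio of Chrna1 to Chrne transcripts was 1.81-fold higher in Pink1-/- than in WT muscle, and that of Chrna1 to Chrnb1 1.75-fold higher. Between Chrnb1 and Chrne the ratio differed by 1.04-fold. These gaps have no error of their own, because both genes come from the same libraries and values per rat were not analysed here; they were not tested. CPM are not divided by transcript length, so the levels of different subunits are not compared.

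The median log2 fold change of the 4 endplate genes was 0.86 (1.81-fold), against -0.02 over all genes. A fold change at least as high as that of Chrne, the lowest of the 4, was found in 7.96% of all genes and in 5.98% of the 5052 genes within the same range of mean expression. Called genes made up 2.26% of those 5052.

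**Figure D2:**
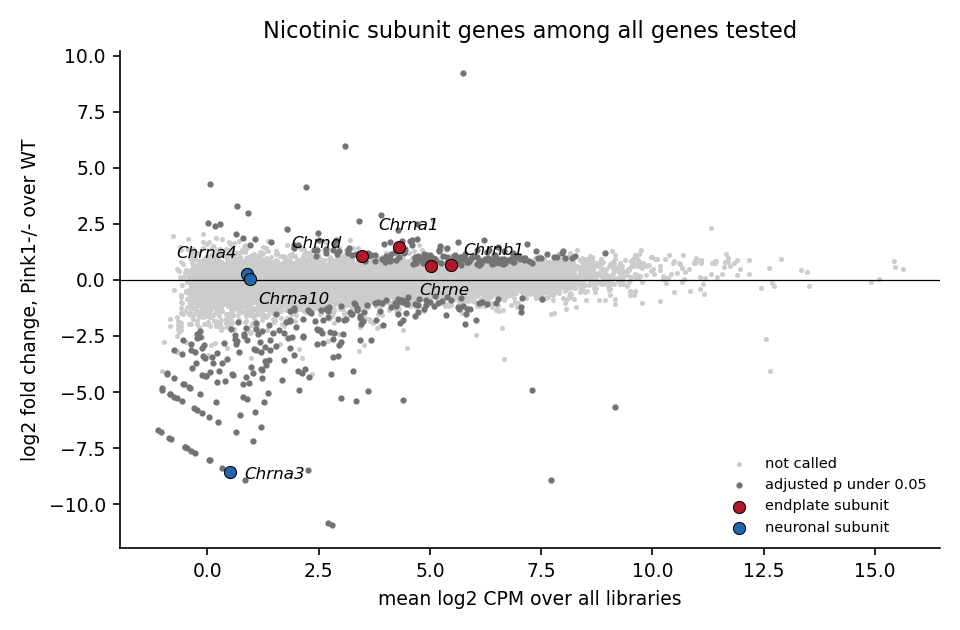
Mean log2 CPM over all libraries (x axis) against log2 fold change, Pink1-/- over WT (y axis), for all 14702 genes as small points, with called genes darker and the 7 subunit genes as large labelled points. Chrna1 and Chrnd sit among the called genes above 0, and Chrna3 sits on the lowest of several sloping lines of weakly expressed genes.

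Genes of the muscle fibre had a median fold change of about the same size, but single genes differed, with log2 fold changes from -1.05 to 1.35. Of 27 genes of a myofibre list, 26 had a log2 fold change above 0 and the median was 0.84 (1.79-fold), 0.02 below the median of the endplate subunits. This list and the lists below were chosen with earlier results of these data known, so their counts are not an independent test. Of the 27, 1 rose, Smpx, a small muscle protein, by 0.85 with an adjusted p of 0.0170 per the authors' deposited table. That is 1 of 27 against 1.37% of all genes called higher, and the call of Smpx ended with scaling to equal summed CPM. Implied SEs were larger than for the endplate genes in Acta1 (0.49) and Ckm (0.52). Acta1, skeletal actin, stood at 0.82 and Ckm, muscle creatine kinase, at 1.15, with adjusted p-values of 0.393 and 0.215 per the authors' deposited table. Chrna1 had a higher log2 fold change than all 27 fibre genes and Chrnd than 23 of them. Chrnb1 and Chrne were each above 8 of the 27.

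Relative to the median of the fibre genes, the log2 fold change was 0.63 for Chrna1 and 0.22 for Chrnd. It was -0.18 for Chrnb1 and -0.23 for Chrne, so their direction turned on this scale. With all genes rescaled in this way, adjusted p-values were 0.0869 for Chrna1 and 0.549 for Chrnd, and no endplate subunit gene was called. The shift was taken as a fixed number, the value of Myh4 (0.84, implied SE 0.72), and each gene kept its own SE. These adjusted p-values therefore leave out the error of the fibre median. The fibre scale moves the median of all genes to -0.86 and calls 71% of all genes, nearly all as lower. Its calls say how genes stand against muscle fibre transcripts and not whether they changed per sample. With scaling to equal summed CPM, which moves every log2 fold change down by 0.21 and calls 4.29% of all genes, Chrna1 was still called (1.25, adjusted p 0.0129) and the call of Chrnd ended (0.85, adjusted p 0.107). With all likelihood ratios divided by 1.96, their median over that of a chi-square distribution, 0.0952% of all genes and no member were called; adjusted p-values were 0.0837 for Chrna3 and 0.319 for Chrna1. In these whole-muscle samples a larger share of fibre RNA and more RNA per fibre cannot be told apart.

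Chrna3 showed the opposite direction and a far larger fitted change. The alpha3 subunit forms the main receptor of autonomic ganglia. Its mean expression was low, at 0.50 log2 CPM, and its log2 fold change was -8.59 with an adjusted p of 9.08e-05 per the authors' deposited table, rank 39 by p-value. The implied level was 2.48 CPM in WT rats and 0.00645 CPM in Pink1-/- rats.

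The Pink1-/- level of Chrna3 lay at the bottom of what the table resolves. It was 1 of 17 genes with an implied Pink1-/- level between 0.00615 and 0.00773 CPM, below a gap that reached up to 0.0240 CPM. These 17 genes form the lowest sloping line in the plot of mean expression against fold change, on which the fold change follows closely from the mean level. All 17 were called. No gene had an implied WT level under 0.117 CPM. For a gene in this position the fitted fold change depends on the prior count of the fit and is not a bound, and the implied SE of 1.66 is not a measured spread. Whether the WT reads came from all 4 rats or from fewer was not analysed here. Weakly expressed genes were called more often: of 1626 genes with a mean log2 CPM under 1, 95 (5.84%) were called, 86 of them lower.

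Chrna4 and Chrna10, the other neuronal members, were also weakly expressed and did not pass the test. Chrna4, a subunit of the main high-affinity receptor of the brain, had implied levels of 1.72 CPM in WT rats and 2.04 CPM in Pink1-/- rats, with a log2 fold change of 0.25 and an adjusted p of 0.847 per the authors' deposited table. Its implied interval ran from 0.626-fold to 2.25-fold. Chrna10, known from hair cells of the inner ear, stood at 1.92 CPM and 1.99 CPM, with a log2 fold change of 0.05 and an adjusted p of 0.978 per the authors' deposited table. Its interval ran from 0.532-fold to 2.01-fold. The intervals of both include 0 and the median of the muscle fibre genes.

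**Figure D3:**
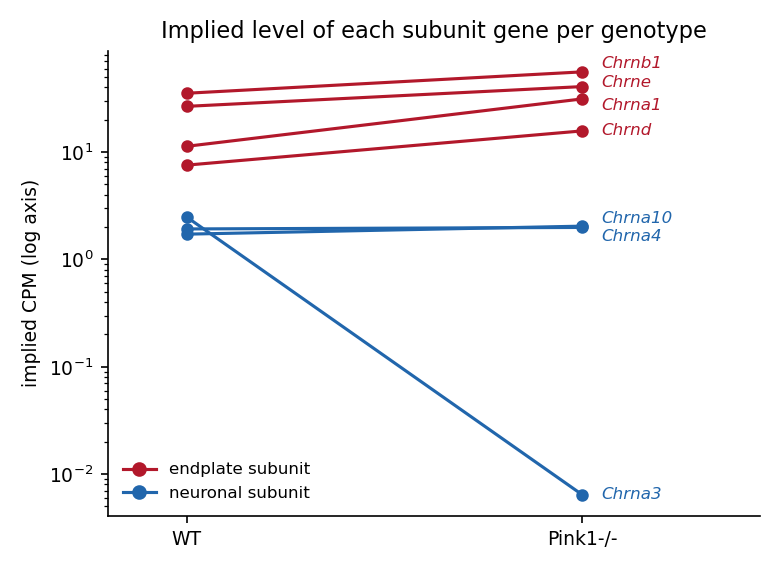
Implied CPM of each subunit gene (y axis, log scale) in WT and Pink1-/- muscle, 1 line per gene, computed from the deposited mean and fold change and without error bars since no values per rat were used. The 4 endplate genes lie between 7.56 and 35.3 CPM in WT and between 15.7 and 55.9 CPM in Pink1-/-, while Chrna3 drops from 2.48 to 0.00645 CPM.

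Many genes of a ganglion neuron list fell, as Chrna3 did. The list also holds genes of neurons in general, such as neurofilament genes, so it does not single out autonomic neurons. It was chosen with earlier results of these data known, so its counts are not an independent test. Of 19 ganglion neuron genes 11 fell and none rose, against 1.68% of all genes called lower and 1.37% called higher. The median log2 fold change of the list was -3.03, against -0.02 over all genes. Vip, a neuropeptide of parasympathetic neurons, stood at -10.94 per the authors' deposited table, and was the only gene of this list below Chrna3. It was also the only one of the list at the same bottom level in Pink1-/- muscle. Scg2, a protein of secretory granules, stood at -8.46 and Dbh, the enzyme that makes noradrenaline, at -3.60 per the authors' deposited table. The other 8 genes of the list were not called. Npy, a neuropeptide of sympathetic neurons, stood at -0.01, Prph, a peripheral neurofilament, at -0.72 and Chga, a granin, at -1.40, with adjusted p-values of 0.997, 0.582 and 0.427 per the authors' deposited table. The only gene of the list above 0 was Nos1, which skeletal muscle fibres also express, at 0.75 with an adjusted p of 0.163 per the authors' deposited table. Over the whole list implied CPM summed to 270.2 in WT rats and 252 in Pink1-/- rats, most of it from Nos1 (138 and 232 CPM); the other 18 genes summed to 132 and 19.8 CPM. The ganglion factors Phox2a and Hand2, and the enzymes Th and Chat, were not analysed here. The part of ganglion content in the lower Chrna3 was not tested.

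Markers of nerve, epithelium and fibroblasts lay on the same side of 0 as Chrna3 and opposite to the endplate genes. Those of vessels and blood cells did not, with 6 of 8 above 0. The counts of fallen genes below stand against 1.68% of all genes called lower. These lists were chosen with earlier results of these data known, so the counts are not an independent test. All 11 genes of Schwann cells and nerve were below 0 with 3 fallen (median -0.52), among them Mbp, a myelin protein, at -1.30 per the authors' deposited table. All 13 epithelial and gland genes were below 0 with 4 fallen (median -1.30). The smallest of these 4 falls was that of Krt13, a mucosal keratin, at -1.30 per the authors' deposited table. The largest, at -8.92, was below the -8.59 of Chrna3. Over the 13 genes implied CPM summed to 14025.6 in WT rats and 1650 in Pink1-/- rats. Muc5b, which was not called, made up 10734.8 CPM of the WT sum and 633 CPM of the Pink1-/- sum. All 9 fibroblast genes were below 0 with 1 fallen, Thy1, a surface protein also made by neurons, at -1.73 per the authors' deposited table. Genes of vessels and blood cells had a median of 0.27 over 8, with none called by the authors' edgeR test and 1 with an unadjusted p under 0.05. The part of tissue composition in the endplate values was not tested.

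Muscarinic receptors, the G-protein-coupled receptors for acetylcholine, were measured for 3 genes, all below 0. Chrm2, the receptor of parasympathetic targets, fell by 3.70 with an adjusted p of 0.0134 per the authors' deposited table, with implied levels of 1.81 CPM (WT) and 0.139 CPM (Pink1-/-). With divided likelihood ratios Chrm2 was not called (adjusted p 0.542). Chrm3, the receptor of glands and smooth muscle, stood at -0.63 and Chrm5 at -0.51, with adjusted p-values of 0.522 and 0.727 per the authors' deposited table.

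Genes that make, store or remove acetylcholine went both ways (5 measured, 1 rose, none fell, median 0.40). Over all genes 1.37% were called higher and 1.68% lower. Prima1, which anchors acetylcholinesterase in the membrane, rose by 1.67 with an adjusted p of 0.00933 per the authors' deposited table. Its implied levels were 8.85 CPM in WT rats and 28.2 CPM in Pink1-/- rats. Prima1 was not called with scaling to the myofibre median (0.83, adjusted p 0.0728) or with divided likelihood ratios (adjusted p 0.483). Ache, acetylcholinesterase itself, stood at 1.03 with an adjusted p of 0.0568 per the authors' deposited table, just outside the threshold. Colq, the collagen tail that holds the enzyme in the synaptic cleft, stood at 0.40 (adjusted p 0.726 per the authors' deposited table). Bche, butyrylcholinesterase, stood at -0.41 (adjusted p 0.470 per the authors' deposited table). Slc5a7, the choline transporter of cholinergic nerve endings, stood at -2.98 with an adjusted p of 0.157 and an unadjusted p of 0.0128 per the authors' deposited table.

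The apparatus that clusters receptors was measured for 23 genes, of which 1 rose and none fell (median 0.08), against 1.37% and 1.68% of all genes. Dok7, the activator of the kinase MuSK, stood at 0.82, Rapsn, the scaffold rapsyn, at 0.71 and Musk at 0.66, with adjusted p-values of 0.144, 0.198 and 0.224 per the authors' deposited table. These log2 fold changes lie beside those of Chrnb1 and Chrne. The list as a whole did not, with 12 genes above 0 and 11 below, from -0.94 to 0.88. Dtna, dystrobrevin, stood at 0.55 with an adjusted p of 0.209 per the authors' deposited table. Agrn, the nerve-derived organiser agrin, stood at -0.35 and its receptor Lrp4 at 0.40, with adjusted p-values of 0.509 and 0.393 per the authors' deposited table.

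None of 13 genes for receptor assembly and toxin-like modulators was called by the authors' edgeR test, while 4 had an unadjusted p under 0.05, 1 higher and 3 lower. Over all genes 17.0% had an unadjusted p under 0.05. Ubxn2a, which regulates traffic of the alpha3 subunit, stood at 0.69 (adjusted p 0.0929 per the authors' deposited table). The 3 lower ones were Lypd6 at -1.28, Lypd6b at -0.84 and Tmem35a, the chaperone of neuronal receptors also called NACHO, at -1.22 per the authors' deposited table. Their adjusted p-values were 0.153, 0.197 and 0.171 per the authors' deposited table. Ric3, a general receptor chaperone, had a log2 fold change of -0.01 per the authors' deposited table.

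Among 17 regulators of subunit transcription and marks of denervated or immature muscle, 1 rose and none fell, with a median of 0.21. Of all genes, 1.37% rose and 1.68% fell. In this list 12 genes were above 0 and 5 below. By the authors' edgeR test 6 were higher and 1 was lower at an unadjusted p under 0.05, which 17.0% of all genes had. Myog, a myogenic factor that binds E-boxes and is induced by denervation, rose by 1.21 with an adjusted p of 0.0292 per the authors' deposited table, with implied levels of 5.67 CPM (WT) and 13.2 CPM (Pink1-/-). Myod1 and Myf6, factors of the same family, stood at 1.34 and 0.68, with adjusted p-values of 0.0974 and 0.0577 per the authors' deposited table. Gadd45a, a stress protein induced by denervation, stood at 0.60 (adjusted p 0.103 per the authors' deposited table). Other genes known to be induced in denervated muscle did not pass the test, and those named next were picked after their values were seen. Ncam1, an adhesion molecule, stood at 0.21 and Runx1, a transcription factor, at -0.39, with adjusted p-values of 0.795 and 0.535 per the authors' deposited table. Myh3, embryonic myosin, stood at -1.29 (adjusted p 0.105 per the authors' deposited table). Myog was not called once summed CPM were made equal (adjusted p 0.0727), with the myofibre scaling (0.37, adjusted p 0.330) or with divided likelihood ratios (adjusted p 0.663).

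**Figure D4:**
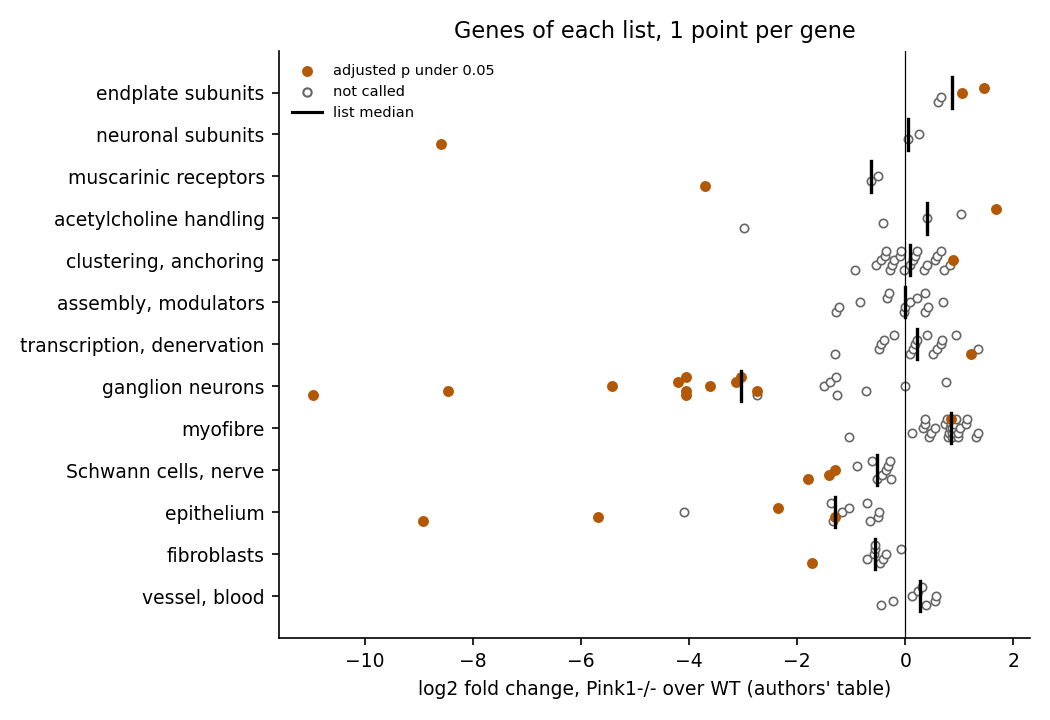
Log2 fold change (Pink1-/- over WT, x axis) of every measured gene in each list (y axis), 1 point per gene, with called genes filled and the list median as a black bar. The endplate and myofibre lists have medians of 0.86 and 0.84, and the ganglion neuron list has a median of -3.03.

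Neighbours along the chromosome were taken as the nearest measured genes. Of 28 such neighbours, 2 on each side of each member, 3 were called, against 3.05% of all genes. None of the 3 lay beside Chrna1, Chrnd or Chrna3, whose neighbours are too few for that share to show a lack of calls. Among the 3 called neighbours were Art1 and Art5, named after their values were seen. Art1 and Art5, ADP-ribosyltransferases next to Chrna10, stood at 1.03 and 1.21 with adjusted p-values of 0.0148 and 0.00691 per the authors' deposited table. In RefSeq's gene order Chrna5 and Chrnb4 flank Chrna3, and Chrng follows Chrnd.

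**Figure D5:**
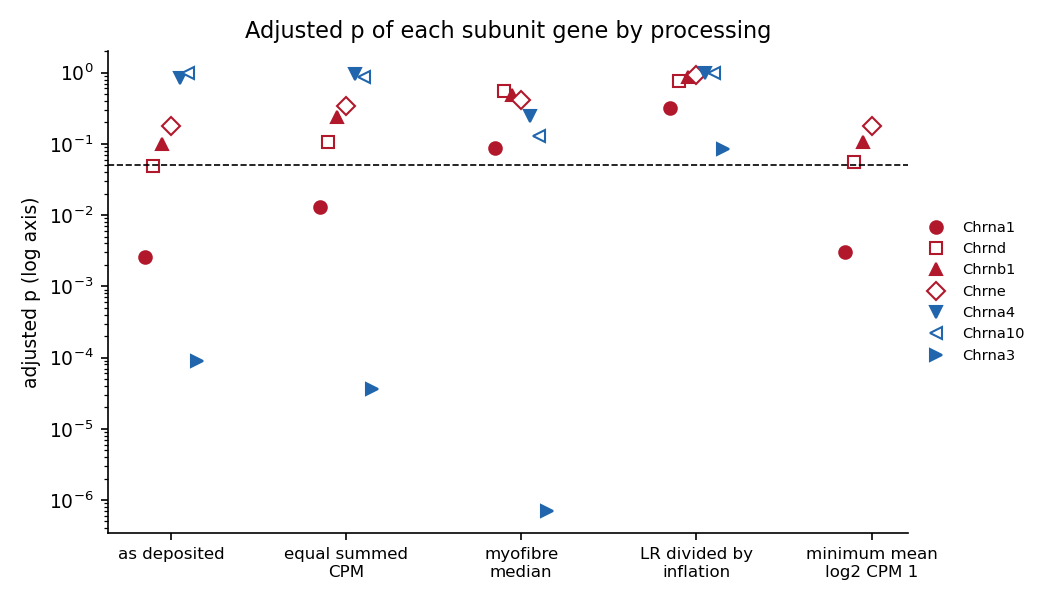
Adjusted p (y axis, log scale) of each subunit gene as deposited and under 4 other treatments of the table (x axis); the dashed line is 0.05, and Chrna3, Chrna4 and Chrna10 have no value with a minimum mean log2 CPM of 1. Chrna1 is under the line as deposited, with equal summed CPM and with the minimum, and no gene is under it once likelihood ratios are divided by their inflation.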

How the data were processed

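Per the submitters' processing notes, the authors used RSEM and edgeR 3.9; the notes give no role for either. Aligner, genome build, annotation, filter and scaling: not given in the sources used here. Columns of the authors' deposited table used were log2 fold change, mean log2 CPM, likelihood ratio (a score), p-value and adjusted p-value. The deposited p-values equal the chi-square tail of the likelihood ratio, and the adjusted ones Benjamini-Hochberg values over 14705 genes (largest relative difference 3.74e-04). The planned per-library test needed counts, so the authors' test stands.

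Implied SEs are the size of the log2 fold change over the square root of the likelihood ratio; intervals (95%) use the normal quantile. Implied CPM solves the mean and the fold change for 4 WT and 3 Pink1-/- libraries of equal size. The depth is unknown. Alternatives shifted all fold changes, divided likelihood ratios, set a minimum mean or a stricter threshold, and readjusted over all genes; the code was tested on simulated data. Of 185 genes in 13 lists, 154 were found. Named genes are all members, Pink1, called genes of the receptor lists with up to 4 of smallest p in each, and up to 3 and defining markers of cell type lists; Colq, Agrn, Lrp4, Musk, Ric3, Myh3, Ncam1, Runx1 and Nos1 were added for their roles after their values were seen. A few listed genes are counted but not reported here by name. Members and lists were chosen with earlier results of these data known. Python 3.11.15, scipy 1.17.1 and matplotlib 3.10.9 were used.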

Additional observations from a re-analysis of the deposited data

How the results depend on the processing

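Of the 7 subunit genes, 3 were called as deposited. The count was 1 (Chrna3) with scaling to the myofibre median, 0 with likelihood ratios divided by 1.96 (their median over the chi-square median) and 1 (Chrna1) with a minimum mean log2 CPM of 1. For endplate genes the count of 2 became 1 with scaling to equal summed CPM, with the minimum and at an adjusted p under 0.01, and 0 in the other cases. For neuronal genes the count of 1 became 0 with divided likelihood ratios, where Chrna3 had an adjusted p of 0.0837 and Chrna1 of 0.319, and 0 with the minimum, which removes all 3 genes. With the minimum Chrnd had an adjusted p of 0.0552. Among the other listed genes 24 were called, 91 with the myofibre scaling and 2 with divided likelihood ratios. Under the myofibre scaling the log2 fold changes turned to -0.18 (Chrnb1), -0.23 (Chrne), -0.59 (Chrna4), -0.79 (Chrna10) and -0.16 (Myf6), and Chrna10 turned to -0.16 with equal summed CPM; none of these was called. Apart from the scalings' own construction, causes were not tested. Over all genes the calls were 448 as deposited, 10433 with the myofibre scaling, 14 with divided likelihood ratios and 177 at an adjusted p under 0.01.

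No paired analysis was possible because the file holds no values per library; the labels give no replicate numbers that pair rats across genotypes. Leaving out each library, DESeq2 and the choice between repeated symbols were not run, since they need values per library or a repeated symbol. Single values rest on a median implied SE of 0.59 (log2) in genes with a mean log2 CPM under 1, against 0.23 in genes as abundant as the endplate subunits.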
